A study of Homo with 2 samples.

Results

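The PLCG2-high cells were 67 single cells from human blastoids in which PLCG2 RNA reached at least 2000 counts per 1000000 unique molecular identifiers of the cell (UMIs, 1 per captured RNA molecule), written below as CPM. They were 36 of 937 barcodes that passed the filters in library 1 and 31 of 1519 in library 2, or 67 of 2456 in all (2.73%). A barcode passed when it had 1000 genes or more and mitochondrial genes gave no more than 20% of its UMIs, which held for 2456 of the 4589 barcodes in the count tables. The cells were selected on their PLCG2 level, and they had been singled out in these data for that level and for few ribosomal protein transcripts. Levels of PLCG2, TEX14, ribosomal protein genes and mitochondrial genes are therefore given as descriptions without a test.

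The study measured RNA in dissociated blastoids, which are embryo-like aggregates, made from the human embryonic stem cell line KhES1 and taken at day 4. Cells of the line were grown in mTeSR-1 on Matrigel, dissociated, and aggregated for 24 h in microwells in high-glucose DMEM with 10% FBS and 10 µM of the ROCK inhibitor Y27632. The aggregates then stayed for 4 days in a PNIPAAm-PEG hydrogel under the same medium. Both libraries, made with a droplet kit that reads the 3′ ends of polyadenylated RNA, carried this 1 treatment, and 1 cell line gave all cells. The labels number the libraries as sample 1 and sample 2 and do not say that they came from separate cultures, so p-values measure the spread between these 2 libraries only. Library 1 held 38665475 UMIs and library 2 held 45208758, and 1 barcode sequence occurred in both, which no PLCG2-high cell carried.

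Phospholipase C gamma 2, the product of PLCG2, cleaves the membrane lipid PIP2 into inositol trisphosphate, which releases calcium, and diacylglycerol, which activates protein kinase C. It is known best from B cells, mast cells and platelets, where the kinases SYK and BTK and the adaptor BLNK act ahead of it. TEX14 is a protein of the bridges that join male germ cells. Most messenger RNA for ribosomal proteins sits in the cytoplasm, whereas MALAT1 is a long noncoding RNA that stays in the nucleus.

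Shallow cells of the same libraries served as the comparison: 42 barcodes in library 1 and 268 in library 2 with 2000 to 8000 UMIs, at least 1% mitochondrial UMIs and PLCG2 under 500 CPM. All other kept barcodes, 859 and 1220, formed the third class. The median PLCG2-high cell held 4139 UMIs and 2279 genes in library 1 and 3761 UMIs and 1945 genes in library 2. The median comparison cell held 2992 UMIs and 1457 genes in library 1 and 3725 UMIs and 2018 genes in library 2, whereas the other kept barcodes had medians of 37047 and 31111 UMIs. With every cell thinned to 2000 UMIs, the median number of genes was 1271 and 1282 in PLCG2-high cells and 1143 and 1304 in comparison cells. A doublet caller marked 0 and 2 of the kept barcodes in the 2 libraries, none of them a PLCG2-high or a comparison cell.

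PLCG2 lies on chromosome 16 at positions 81739041 to 81962685 (GRCh38) and codes for a protein. In library 1 its level ranged from 2050 to 91109 CPM over the 36 cells, with a median of 8741. In library 2 it ranged from 2127 to 26601 over the 31 cells, with a median of 5435. These levels rested on 6 to 248 PLCG2 UMIs a cell in library 1 (median 39) and 7 to 76 in library 2 (median 24), and no cell entered the class on fewer than 6 molecules. At the threshold, the cells just inside were at 2050 and 2342 CPM in library 1 and at 2127 and 2865 in library 2. The cells just outside were at 1716 and 1396 in library 1 and at 1627 and 1605 in library 2, and 6 and 24 kept barcodes lay between 500 and 2000 CPM. Summed over cells, PLCG2 stood at 9744 and 6661 CPM in PLCG2-high cells, at 12.6 and 30.8 in comparison cells and at 31.4 and 20.8 in the other kept barcodes. The 67 cells held 45.8% of all PLCG2 UMIs in the 2 tables with 0.408% of all UMIs. The cell with the most PLCG2 UMIs gave 12.5% of the class total in library 1 and 8.22% in library 2.

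**Figure D1:**
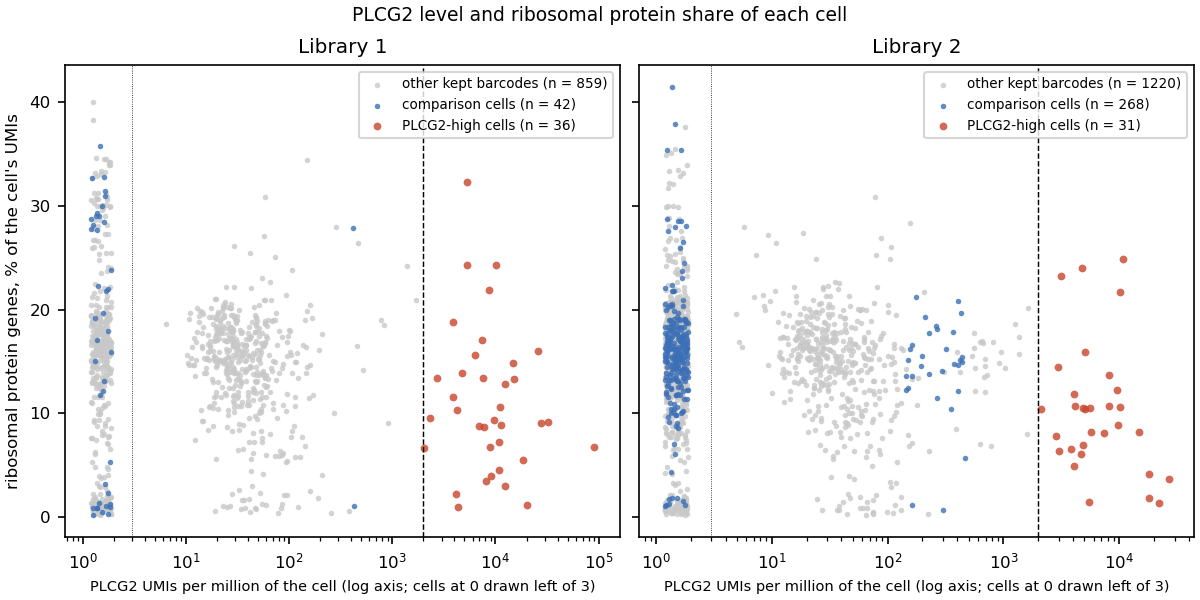
Each point is 1 kept barcode, with PLCG2 in CPM of the cell on a log x axis and the percentage of its UMIs from ribosomal protein genes on the y axis, for library 1 (left) and library 2 (right). The dashed line is the limit of 2000 CPM, and the 36 and 31 PLCG2-high cells to its right span most of the range of ribosomal protein shares while their medians, 9.48% and 10.5%, lie below those of the comparison cells, 18.6% and 15.7%.

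TEX14, on chromosome 17 at positions 58556678 to 58692045, gave 41 UMIs in the PLCG2-high cells of each library, or 202 and 295 CPM. It gave 1 UMI in the comparison cells of library 1 (6.32 CPM), 0 in those of library 2, and stood at 1.89 and 1.78 CPM in the other kept barcodes. The 67 cells held 29.1% of all TEX14 UMIs. A TEX14 UMI was found in 18 of 36 and 20 of 31 PLCG2-high cells. After thinning to 2000 UMIs it was found in 10 of 33 (30.3%) and 10 of 23 (43.5%), against 0 of 42 and 0 of 268 comparison cells and 0.712% and 0.370% of the other kept barcodes, leaving out 3 and 8 shallower PLCG2-high cells. Thus TEX14 was seen in some of the PLCG2-high cells and not in others, and it was near the level of single UMIs in comparison cells.

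The genes beside these 2 loci gave few tests, and over all genes tested 6.34% were called higher and 8.22% lower. Among the 5 genes on each side of PLCG2, 5 of 10 could be tested, 0 were higher and 1 was lower. That gene was GCSH, which codes for a protein of the glycine cleavage system (log2 fold change −2.75, SE 0.47, edgeR quasi-likelihood test, adjusted p = 0.000616). Among the 5 on each side of TEX14, 7 of 10 could be tested, 0 were higher and 1 was lower, the mitotic spindle gene SKA2 (−1.52, SE 0.47, edgeR adjusted p = 0.0347). SEPTIN4-AS1, which overlaps TEX14, gave 0 UMIs in PLCG2-high cells and 1 in comparison cells.

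The label "poor in ribosomal protein RNA" held for the medians but did not separate the cells. Ribosomal protein genes took a median of 9.48% of a cell's UMIs in library 1 (range 0.992% to 32.3%) and 10.5% in library 2 (1.37% to 24.9%). The comparison medians were 18.6% (0.200% to 35.8%) and 15.7% (0.695% to 41.5%), and those of the other kept barcodes 15.5% and 15.8%. Of the PLCG2-high cells, 31 of 36 and 26 of 31 lay below their library's comparison median, and 0 lay below all comparison cells. Shares under 5% were also found in 13 of 42 comparison cells of library 1 and 11 of 268 of library 2, against 7 of 36 and 6 of 31 PLCG2-high cells. The comparison class of library 1 was thus a mixture with many ribosome-poor barcodes. The PLCG2 level in CPM falls as other RNA rises, so the share and the rule have a denominator in common. When PLCG2 was instead scaled to the UMIs outside ribosomal protein and mitochondrial genes, 1 cell was added in each library. That denominator is never larger than the cell's total, so the 67 cells met the limit by construction. Their staying in the class therefore does not test the effect of the shared denominator.

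Single ribosomal protein genes differed in direction. Of 84 in both tables, 82 had at least 50 CPM, 68 were lower in PLCG2-high than in comparison cells of both libraries, 7 were higher in both and 7 differed between the libraries. RPS7, a small-subunit protein, stood at 443 and 504 CPM against 1845 and 2313 in comparison cells. RPL7, a large-subunit protein, stood at 330 and 310 CPM against 1441 and 1075. The 7 that were higher in both libraries included RPL13 on chromosome 16 and RPL13A, RPL28, RPL36, RPS15 and RPS19 on chromosome 19. RPL13A stood at 2612 and 2880 CPM against 2269 and 1563, and RPS19 at 3586 and 4270 CPM against 3210 and 3252. Of the 12 ribosomal protein genes on chromosome 19, 6 were higher and 6 lower in both libraries, whereas 1 of the 70 elsewhere was higher. Ribosomal protein genes have many processed copies in the genome, and how reads that fit several copies were counted is not stated in the labels.

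**Figure D2:**
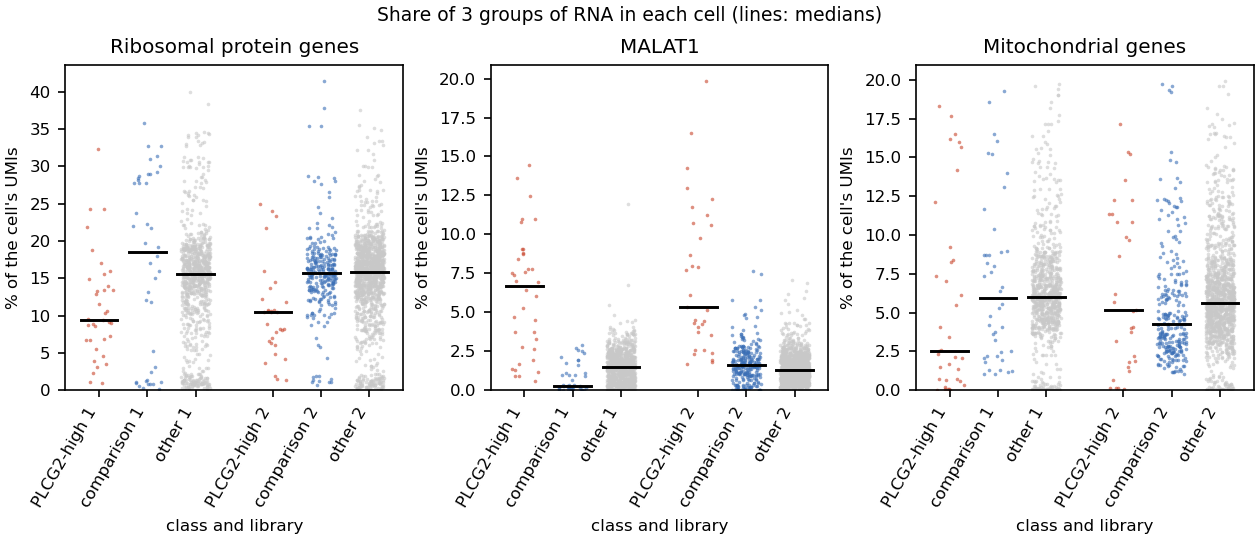
Each point is 1 kept barcode, with the percentage of its UMIs from ribosomal protein genes (left), MALAT1 (middle) and mitochondrial genes (right) on the y axis, by class and library on the x axis; black lines are medians. MALAT1 medians are 6.70% and 5.36% in PLCG2-high cells and 0.297% and 1.63% in comparison cells, with overlapping ranges.

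MALAT1, whose level the selection had not used, was higher in PLCG2-high cells. It made up a median of 6.70% of UMIs in PLCG2-high cells of library 1 (range 0.588% to 14.5%) and 5.36% in library 2 (1.66% to 19.9%). Comparison cells had medians of 0.297% and 1.63%, and the other kept barcodes 1.47% and 1.27%. All 36 and all 31 PLCG2-high cells lay above their library's comparison median, and 26 and 14 lay above every comparison cell. Summed over cells, MALAT1 stood at 53376 and 60172 CPM against 7305 and 17683, a log2 fold change of 2.18 (SE 0.34, edgeR quasi-likelihood test, adjusted p = 0.00026). The size differed between the libraries through the comparison cells, which were lower in library 1. Of 13 tested RNAs from a list of nuclear-retained noncoding RNAs, 1 rose (MALAT1), 0 fell, and the median log2 fold change was 0.04. NEAT1, the RNA that builds paraspeckles, had a log2 fold change of −0.11 (SE 0.36, edgeR adjusted p = 0.884). Taken by library, the log2 fold change of NEAT1 was −1.34 in library 1 and 1.14 in library 2.

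Mitochondrial RNA showed no single direction per cell. Its median share was 2.55% and 5.18% in PLCG2-high cells against 5.98% and 4.24% in comparison cells, whose share had to reach 1% by rule. In 11 of 36 and 5 of 31 PLCG2-high cells it was under 1%. Of 13 mitochondrial messages, 7 were higher in PLCG2-high cells of both libraries, 2 were lower in both and 4 differed. MT-CO1, a subunit of cytochrome oxidase, stood at 20870 and 20300 CPM against 12544 and 9824, and MT-ND5, a subunit of complex I, at 4761 and 4969 CPM against 2427 and 2853.

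Among the PLCG2-high cells, the median mitochondrial share was lower in each band of higher PLCG2 in both libraries, while the medians of the ribosomal protein and MALAT1 shares showed no such steady order. The median mitochondrial share over cells at 2000 to 5000 CPM, at 5000 to 10000 and above was 8.27%, 2.55% and 2.05% in library 1 and 8.66%, 4.90% and 1.52% in library 2. In library 1 the median ribosomal protein share was 10.3% in 9 cells at 2000 to 5000 CPM, 11.4% in 12 cells at 5000 to 10000 and 9.07% in 15 cells above that. In library 2 it was 10.5% in 13 cells, 10.5% in 10 cells and 6.17% in 8 cells. Spearman's rho of the PLCG2 level with the ribosomal protein share was −0.17 in each library, and with the MALAT1 share −0.03 and 0.10. The same measure was −0.24 and −0.33 with the cell's UMIs, which are the denominator of the level, and −0.30 and −0.34 with the mitochondrial share. These correlations are across the cells of 1 library each and carry no test.

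For the comparison of all other genes, UMIs were summed per library and class, and PLCG2-high were tested against comparison cells with the library as a block. Of 9704 genes tested, 1413 (14.6%) passed an adjusted p of 0.05, 615 higher (6.34%) and 798 lower (8.22%) in PLCG2-high cells. The median log2 fold change over all genes tested was 0.01, and 1411 of the 1413 had the same direction in each library alone. Since the fit that called them used these same 2 libraries, that shared direction is no separate support. The sums of PLCG2-high cells were shallow, 203311 and 138869 UMIs of the genes in both tables, and 1 cell gave 9.22% and 9.00% of them. With PLCG2-high cells held to the depth and mitochondrial limits of the comparison cells, which left 18 and 16 cells, 435 genes passed, 183 higher and 252 lower, and 405 of the 1413 were called again. None of the 1413 was called in the other direction under any alternative tried.

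Histone genes and antisense or divergent transcripts stood among the 15 largest rises. The kit reads polyadenylated RNA, so histone levels here cover only what was captured as polyadenylated. H3C12, a replication-dependent histone H3 gene on chromosome 6 at positions 27890315 to 27890826, stood at 118 and 137 CPM in PLCG2-high cells against 0 and 0.907 in comparison cells. It was seen in 16 of 36 and 10 of 31 PLCG2-high cells and in 0 of 42 and 1 of 268 comparison cells (log2 fold change 7.39, SE 0.76, edgeR adjusted p = 1.21e-05, from 43 against 1 UMIs). The histone H2B gene H2BC15 stood at 49.2 and 86.4 CPM against 0 and 0.907 (edgeR adjusted p = 0.000107). RGS2, a negative regulator of G protein signalling, stood at 108 and 115 CPM against 6.32 and 2.72 (log2 fold change 5.18, SE 0.63, edgeR adjusted p = 2.59e-05). ANGPTL4, a secreted inhibitor of lipoprotein lipase, stood at 73.8 and 86.4 CPM against 6.32 and 3.63. TNFRSF10D, a decoy receptor for the death ligand TRAIL, stood at 113 and 108 CPM against 6.32 and 7.26. The ephrin receptor gene EPHB3, the adhesion gene CNTN5 and WDR81, which codes for a protein of endosome maturation, were also among the 15 largest, with log2 fold changes of 3.54 to 3.75.

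A further 6 of the 15 were noncoding transcripts named for a neighbouring gene. TFAP2A-AS1, at positions 10412318 to 10416169 of chromosome 6, stood at 103 and 130 CPM against 0 and 0.907 (log2 fold change 7.15, SE 0.76, edgeR adjusted p = 1.21e-05). TFAP2A itself, a transcription factor of trophectoderm and amnion, stood at 216 and 274 CPM against 158 and 133 (0.73, SE 0.26, edgeR adjusted p = 0.0617). CLASP1-AS1, STX5-DT, BTG1-DT, ATP2B1-AS1 and OSER1-DT had log2 fold changes of 4.69, 4.44, 4.13, 4.09 and 3.57. Of 213 tested genes with antisense, divergent or intronic names, 56 were higher and 1 was lower (median log2 fold change 1.01). Of 388 with a RefSeq entry as long noncoding RNA, 86 were higher (22.2%, against 6.34% of all genes) and 3 lower. The labels do not state how the counting used strand. Whether reads of an antisense transcript were kept apart from those of its partner was not tested.

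Of 263 tested identifiers without a gene symbol, 73 were higher and 5 lower, beside 6.34% higher and 8.22% lower over all genes tested. ENSG00000282885 stood at 659 and 288 CPM against 6.32 and 15.4 (174 against 18 UMIs). ENSG00000288957 stood at 182 and 166 CPM against 6.32 and 0 (60 against 1 UMIs). Both were named after their values were seen.

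**Figure D3:**
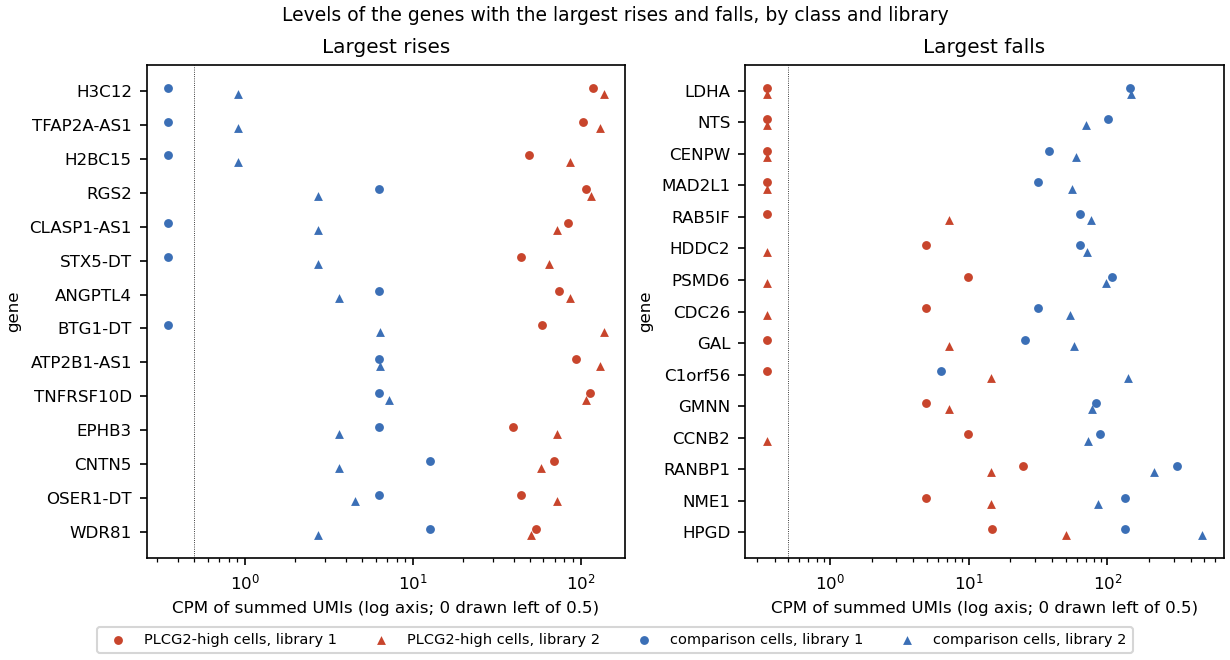
CPM of UMIs summed per class and library (log x axis, 0 drawn left of the dotted line) for 14 of the 15 genes with the largest rises (left) and the 15 with the largest falls (right), with circles for library 1 and triangles for library 2. PLCG2-high cells (red) and comparison cells (blue) overlap for C1orf56 alone; the genes were picked for large changes in the same direction in both libraries.

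LDHA, the lactate dehydrogenase gene of glycolysis on chromosome 11 at positions 18394563 to 18408425, gave 0 UMIs in the 67 PLCG2-high cells. Comparison cells held 187 LDHA UMIs, at 145 and 149 CPM, which made the level in PLCG2-high cells at least 16.9-fold lower against a floor of 3 UMIs over the class (edgeR adjusted p = 1.88e-05). The neuropeptide gene NTS also gave 0 UMIs, against 101 and 69.8 CPM (at least 8.41-fold lower). The same held for the centromere protein gene CENPW (at least 6.42-fold) and the spindle checkpoint gene MAD2L1 (at least 5.97-fold). In all, 34 of the 798 lower genes had 0 UMIs in PLCG2-high cells, and 32 of the 615 higher genes had 0 in comparison cells. RANBP1, a regulator of nuclear transport, stood at 24.6 and 14.4 CPM against 316 and 218 (log2 fold change −3.70, SE 0.42, edgeR adjusted p = 1.88e-05). The nucleoside diphosphate kinase gene NME1 stood at 4.92 and 14.4 CPM against 133 and 85.2, and GMNN, an inhibitor of replication licensing, at 4.92 and 7.20 against 82.2 and 77.1. HPGD, which inactivates prostaglandins, stood at 14.8 and 50.4 CPM against 133 and 480. RAB5IF, HDDC2, CDC26 and the neuropeptide gene GAL were seen as 1 UMI each in PLCG2-high cells, and the proteasome gene PSMD6 as 2. The comparison level of C1orf56 was 6.32 CPM in library 1 and 140 in library 2, so that its fall rested on library 2.

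Messages for energy metabolism were lower as a group. Of 22 genes of the nuclear-encoded respiratory chain, 21 fell and 0 rose, with a median log2 fold change of −1.84 (13 to 21 fell under 13 alternatives). ATP5MC3, a subunit of ATP synthase, stood at 54.1 and 64.8 CPM against 278 and 356 (−2.49, SE 0.30, edgeR adjusted p = 2.64e-05). COX7A2, a subunit of cytochrome oxidase, stood at 39.3 and 101 CPM against 329 and 284, and UQCRH, of complex III, at 133 and 108 CPM against 550 and 473. The mitochondrially encoded MT-CO1, described above without a test, was higher in PLCG2-high cells of both libraries. Of 16 tested genes of glycolysis, 8 fell and 0 rose (median −0.89). LDHB stood at 157 and 108 CPM against 720 and 488, and PGK1 at 24.6 and 43.2 CPM against 107 and 133.

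Translation factors followed the ribosomal protein genes. Of 18 tested, 13 fell and 0 rose (median log2 fold change −0.91, 6 to 15 under the alternatives). BTF3, a subunit of the nascent polypeptide-associated complex, stood at 143 and 144 CPM against 657 and 677 (−2.28, SE 0.25, edgeR adjusted p = 1.27e-05). Its partner NACA stood at 443 and 403 CPM against 1308 and 1315, and the initiation factor gene EIF3F at 98.4 and 79.2 CPM against 297 and 317. Of 16 mitochondrial ribosomal protein genes, 3 fell (MRPL51, MRPL11 and MRPL20), 0 rose and the median was −1.11.

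Of 21 messages for the cytoskeleton and other abundant cytosolic proteins, 18 fell and 0 rose, with a median of −1.58 (13 to 21 fell under the alternatives). ACTB, which codes for beta-actin, stood at 339 and 475 CPM against 1965 and 1715 (−2.26, SE 0.23, edgeR adjusted p = 1.21e-05). The actin-binding PFN1 stood at 113 and 158 CPM against 758 and 578, and S100A10, a partner of annexin A2, at 143 and 144 CPM against 506 and 752. How reads that fit more than 1 place in the genome were counted is not stated in the labels for these genes either. Of 18 messages for the secretory pathway and matrix, 5 fell (CALR, PDIA3, PDIA6, KDELR2 and LUM) and 1 rose (COL1A1, at 59.0 and 72.0 CPM against 25.3 and 15.4).

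Chaperones and stress genes moved in both directions. Of 12 heat shock genes, 7 fell and 1 rose (BAG3), with a median log2 fold change of −1.28. HSPE1, the mitochondrial co-chaperonin, stood at 78.7 and 64.8 CPM against 423 and 434, HSPD1 at 148 and 130 CPM against 524 and 730, and HSP90AB1 at 448 and 425 CPM against 1548 and 1742. Inducible HSPA1A had 1 UMI in PLCG2-high cells and 37 in comparison cells and did not pass (edgeR adjusted p = 0.0523). Of 10 genes of the unfolded protein and integrated stress response, the transcription factor gene ATF4 and the phosphatase subunit gene PPP1R15A rose and the endoplasmic reticulum chaperones HSPA5 and HSP90B1 fell. ATF4 stood at 93.5 and 180 CPM against 31.6 and 54.4 and PPP1R15A at 73.8 and 72.0 CPM against 0 and 18.1, whereas HSPA5 stood at 108 and 79.2 CPM against 133 and 408. With PLCG2-high cells held to the limits of the comparison cells, none of the 4 passed.

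Of 12 tested immediate early genes, which respond to stimuli without new protein synthesis, 6 rose (JUN, JUND, ATF3, IER2, DUSP1 and KLF4) and 0 fell, with a median of 0.94. JUN stood at 266 and 310 CPM against 37.9 and 92.5 (1.82, SE 0.29, edgeR adjusted p = 0.000329), IER2 at 118 and 187 CPM against 25.3 and 34.5, and the phosphatase gene DUSP1 at 44.3 and 64.8 CPM against 0 and 8.16. The count was 3 to 7 under the alternatives, and JUN, IER2 and DUSP1 passed under every alternative that gave them a value. Of 13 p53 targets and genes of apoptosis, 4 rose (CDKN1A, BBC3, PLK3 and BCL2L11) and 1 fell, BAX, at 19.7 and 43.2 CPM against 88.5 and 119. The cell cycle inhibitor CDKN1A stood at 54.1 and 43.2 CPM against 6.32 and 2.72 (3.89, SE 0.74, edgeR adjusted p = 0.00138). Between 1 and 6 of the list rose under the alternatives, and 1 did with PLCG2-high cells held to both the depth and the mitochondrial limits of the comparison cells.

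**Figure D4:**
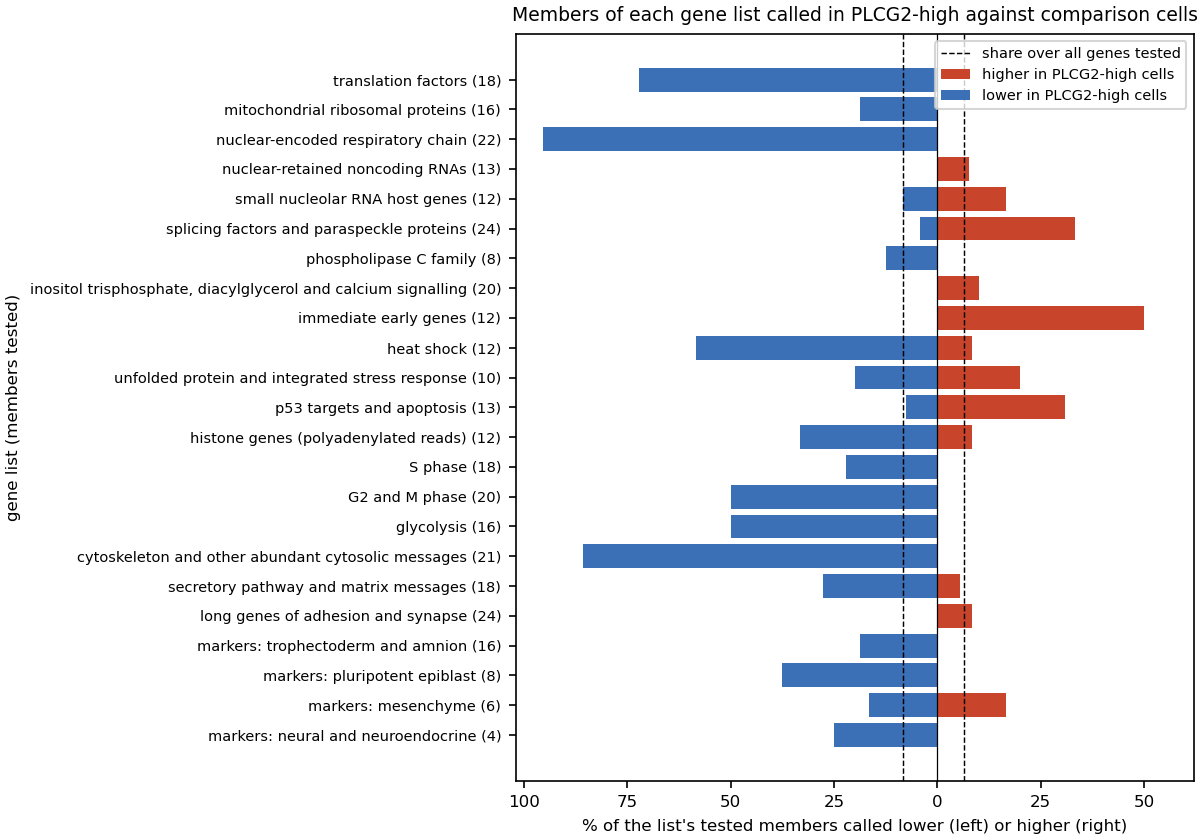
For each gene list with at least 3 tested members (number in brackets), bars give the percentage of members called higher (red, right) and lower (blue, left) in PLCG2-high against comparison cells; dashed lines give the shares over all 9704 genes tested, 6.34% and 8.22%. The respiratory chain, the abundant cytosolic messages and the translation factors have the longest bars to the left, with 21 of 22, 18 of 21 and 13 of 18 members, and immediate early genes the longest to the right, with 6 of 12.

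Of 24 splicing factors and paraspeckle proteins, 8 rose (SON, PNISR, LUC7L3, DDX17, RBM39, CLK1, PNN and ACIN1) and 1 fell (DDX5), with a median of 0.54. The splicing kinase gene CLK1 stood at 98.4 and 93.6 CPM against 19.0 and 13.6 (2.63, SE 0.47, edgeR adjusted p = 0.000927). PNISR stood at 315 and 382 CPM against 75.8 and 168, and ACIN1 at 266 and 274 CPM against 107 and 111. Between 2 and 9 rose under the alternatives, and 2 did with both limits imposed, where the median was 0.31. Of 12 host genes of small nucleolar RNAs, SNHG12 (93.5 and 108 CPM against 19.0 and 10.9) and SNHG1 rose and SNHG29 fell (216 and 252 CPM against 638 and 843).

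Cell cycle messages were lower in part. Of 20 tested genes of G2 and M phase, 10 fell and 0 rose (median −1.53). CCNB2, which codes for a mitotic cyclin and was also among the 15 largest falls, stood at 9.84 and 0 CPM against 88.5 and 72.6. UBE2C, a ubiquitin-conjugating enzyme of mitotic exit, stood at 14.8 and 14.4 CPM against 114 and 111, and the spindle assembly factor TPX2 at 19.7 and 21.6 CPM against 101 and 136. This count depended on few cells. With PLCG2 scaled to the UMIs outside ribosomal protein and mitochondrial genes, 0 of 20 fell and the median was −0.11. That rule added 1 cell in each library, and the 1 in library 1 held 50696 UMIs, 19.9% of the UMIs of the class there. With a limit of 1000 CPM, which also takes in that cell, 1 of 20 fell, the median was 0.02 and the log2 fold change of UBE2C was 0.05. Of 18 genes of S phase, 4 fell (TYMS, RRM1, GINS2 and POLA1) and 0 rose. With both limits imposed 0 fell, and the median log2 fold change was −0.80 in place of −0.91. Of 12 genes of a histone list, the replication-independent H2AZ1, H2AZ2, H3-3A and H3-3B fell and H2AC6 rose. H2AZ1 stood at 93.5 and 79.2 CPM against 701 and 546, and H2AC6 at 143 and 187 CPM against 44.2 and 29.9. Of 24 tested genes with names of the H1, H2A, H2B, H3 and H4 series, a group put together after values were seen, 9 rose and 0 fell, while the S phase genes above did not rise. Histone counts here cover only RNA captured as polyadenylated and are no measure of all histone RNA.

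Counts for genes of the PLCG2 pathway stand beside the 14.6% of all genes tested that passed, and do not set the pathway apart. Of 8 tested members of the phospholipase C family other than PLCG2, 0 rose and 1 fell. That was PLCL2, an inactive relative, whose comparison level was 25.3 CPM in library 1 and 116 in library 2 against 19.7 and 7.20 in PLCG2-high cells, so that the fall rested on library 2. PLCG1, the widely expressed relative, stood at 24.6 and 79.2 CPM against 19.0 and 13.6 (1.71, SE 0.64, edgeR adjusted p = 0.0787). Of the genes that act ahead of PLCG2 in immune cells, 1 of 13 could be tested, the kinase gene LYN, which fell (24.6 and 43.2 CPM against 82.2 and 148). BLNK, CD79A, CD79B, VAV1, LCP2, LAT and FCER1G gave 0 UMIs in PLCG2-high cells. Of 20 tested genes of inositol trisphosphate, diacylglycerol and calcium signalling, 2 rose and 0 fell (median 0.01). They were ITPR1, the calcium channel opened by inositol trisphosphate, at 39.3 and 72.0 CPM against 0 and 6.35 (3.17, SE 0.74, edgeR adjusted p = 0.00632), and the diacylglycerol kinase gene DGKZ. ITPR1 did not pass with both limits imposed, and DGKZ did not under 6 of 13 alternatives. Of 14 genes of intercellular bridges and male germ cells, 2 could be tested and 0 passed. DDX4, DAZL, SYCP3, MAEL, TEX11 and PIWIL1 gave 0 UMIs in PLCG2-high cells, at a class depth where 3 UMIs over both libraries would be 8.77 CPM.

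Among tested markers of the cell types that the blastoids could hold, TWIST1 alone was called higher. Over all genes tested, 6.34% were higher and 8.22% lower. The markers called lower came from the trophectoderm and amnion, epiblast, mesenchyme, syncytiotrophoblast and neural lists. For blood, endoderm and primitive streak no more than 1 marker could be tested. These counts do not name a type for the cells. Of 16 trophectoderm and amnion markers, 3 fell (KRT18, KRT8 and VGLL1), 0 rose and none was at 0, and their summed level was 3020 and 3039 CPM against 3741 and 4158. The keratin gene KRT8 stood at 516 and 454 CPM against 840 and 979. Of 8 tested markers of pluripotent epiblast, 3 fell (POU5F1, L1TD1 and SFRP2) and 0 rose. With both limits imposed 0 fell, while the median log2 fold change was −0.18 with and without them. POU5F1 stood at 19.7 and 7.20 CPM against 303 and 78.9, and the summed level of the 14 listed markers was 723 and 799 CPM against 1289 and 1109, with NANOG, PRDM14, TDGF1 and ZIC2 among those at 0 UMIs. Of 6 tested mesenchyme markers, the transcription factor gene TWIST1 rose (44.3 and 86.4 CPM against 6.32 and 9.07) and the proteoglycan gene LUM fell, and the list summed to 300.0 and 396 CPM against 373 and 587. Markers of blood and immune cells summed to 19.7 and 21.6 CPM against 12.6 and 18.1, with HLA-DRA, CD79A, CD14, SPI1 and PF4 at 0 UMIs in PLCG2-high cells, and 0 of 1 tested passed. Syncytiotrophoblast markers summed to 4.92 and 7.20 CPM against 37.9 and 151, with CGA at 0 UMIs, and both tested members fell. The fall of CYP19A1 was seen in library 2 alone, since library 1 had 4.92 CPM in PLCG2-high and 0 in comparison cells. Neural markers summed to 349 and 317 CPM against 227 and 249, with 1 of 4 tested lower (STMN2). Endoderm markers summed to 49.2 and 50.4 CPM against 31.6 and 53.5, with 0 of 1 tested passing and SOX17, GATA4, HNF4A, AFP, APOA1, APOA2 and CER1 at 0 UMIs, and primitive streak markers to 29.5 and 7.20 CPM against 63.2 and 50.8, with none testable and TBXT, MIXL1 and MESP1 among the 9 of 12 at 0 UMIs.

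**Figure D5:**
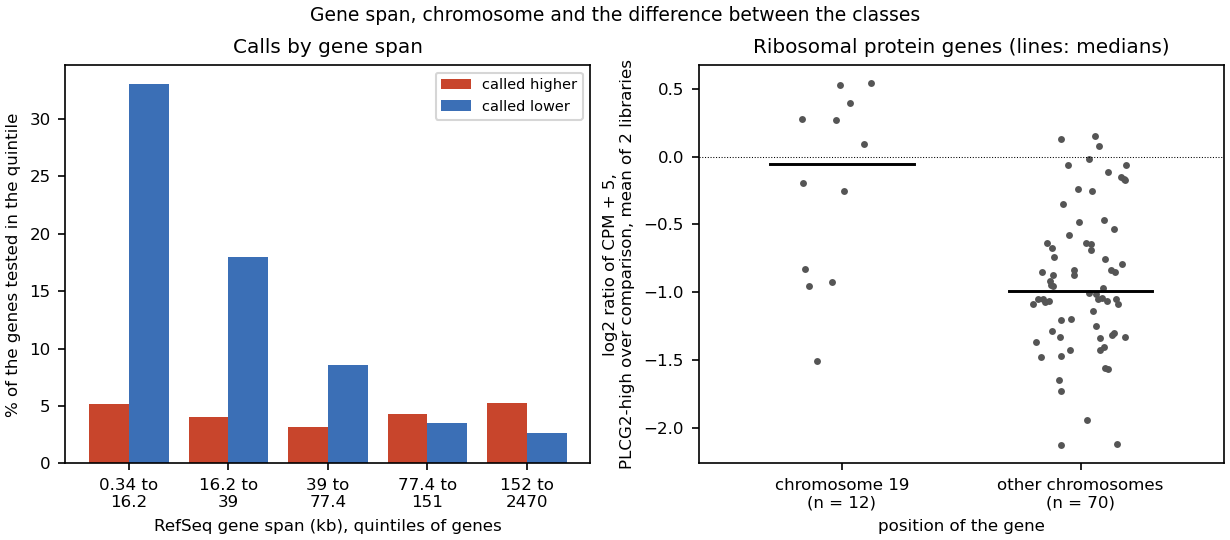
Left, the percentage of genes called higher (red) and lower (blue) in PLCG2-high cells in quintiles of gene span (kilobases, RefSeq), for 5689 genes with at least 50 UMIs in the 2 classes; right, the log2 ratio of CPM + 5 between PLCG2-high and comparison cells, as the mean of 2 libraries, for 82 ribosomal protein genes by chromosome. Calls of lower genes are most frequent among short genes, 376 of 1138 in the first quintile and 30 of 1138 in the last, and 6 of the 7 ribosomal protein genes that are higher in both libraries lie on chromosome 19. The limit of 50 UMIs is met mostly through comparison cells and keeps a smaller part of the genes called higher than of those called lower.

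Lower genes were short. In quintiles of genomic span, among 5689 genes with at least 50 UMIs in the 2 classes and a RefSeq entry, the median log2 fold change was −0.74 in the shortest quintile, then −0.42, −0.15, 0.06 and 0.11. In the shortest quintile, 376 of 1138 genes were lower and 59 higher, and in the longest 30 were lower and 60 higher. The limit of 50 UMIs was met mostly through comparison cells, whose sum in library 2 was 1102651 UMIs against 138869 in PLCG2-high cells. It kept a smaller part of the genes called higher than of those called lower. The balance of higher and lower within a quintile, and the quintile medians, depend on that limit. Spearman's rho of the fold change with the span was 0.33 across these genes, which are not independent replicates. Genes called higher were not longer than the rest: their median span was 25653 bases against 41702 for all tested and 16066 for those called lower, with a RefSeq entry for 88.0%, 97.2% and 99.4%. Of 24 long genes of adhesion and synapse, 2 rose (CNTN5 and DLG2), 0 fell, and the median was 0.19. By chromosome, genes on chromosome 19 had the highest median log2 fold change, 0.33, with 50 of 559 tested genes higher (8.94%) and 30 lower.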

How the data were processed

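Single cells of 2 libraries were read from the tables of raw UMI counts that the authors deposited, with genes in rows and barcodes in columns; the submitters' processing notes name GRCh38 as the build and Cell Ranger (9.0.0) as the tool, and the strand setting and read handling are not given in the sources used here. No barcode was removed beyond the filters in the report. Libraries were taken from the sample numbers in the labels. The members and the gene lists were chosen with earlier results of these data known.

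UMIs of the 25556 genes in both tables were summed per library and class (PLCG2-high, comparison, other kept barcodes), giving 6 sums. edgeR 4.0.16 in R 4.3.3 was used with TMM scaling, filterByExpr, a quasi-likelihood test with the library as a block, since both classes come out of each library, and Benjamini-Hochberg adjustment over all genes tested, at 0.05. The third class shared in the estimate of the spread, with 2 residual degrees of freedom. Deviations of the 2 classes by library correlated at r = 0.02 over 9704 genes. PLCG2, ribosomal protein and mitochondrial genes were left out of the test, and TEX14 was described only. The procedure was tested on simulated counts.

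Genes are named by rule: the 15 largest rises and falls among genes that passed with the same direction in each library, at least 50 CPM in the higher class and a symbol, and up to 4 members of each of 29 lists by size of change at 10 CPM or more; others are named as counts of lists require or as said. A few genes that these rules name are not reported here. Folds against 0 use a floor of 3 UMIs over a class and cover counting error only. Scrublet, run per library, marked doublets, which were kept. Gene spans and coordinates are from the RefSeq annotation of GRCh38.p14. DESeq2 1.42.0 and the other alternatives are described at the end. The depth is that of 2 libraries, and sums of PLCG2-high cells of 203311 and 138869 UMIs limit the precision for genes under about 50 CPM.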

Additional observations from a re-analysis of the deposited data

Results flagged for a closer look

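Barcodes with too few genes for the comparisons also carried high PLCG2. Among barcodes under 1000 genes, PLCG2 reached 2000 CPM in 125 of 980 in library 1 (12.8%) and in 66 of 1013 in library 2 (6.52%), against 3.84% and 2.04% of the barcodes that passed the filters. Such barcodes held medians of 410.0 and 371 UMIs, so that 1 PLCG2 UMI alone reaches the limit in many of them. Their PLCG2 UMIs summed to 851 and 303. MALAT1 made up a median of 2.06% and 3.03% of their UMIs, against 0.462% and 0.995% in barcodes under 1000 genes with PLCG2 under 500 CPM. The median ribosomal protein share was 11.96% and 13.6%, against 23.7% and 15.4%. TEX14 summed to 241 and 366 CPM over these barcodes under 1000 genes with high PLCG2, and to 5.89 and 7.88 CPM over those with PLCG2 under 500 CPM. One more barcode in each library met the PLCG2 limit with over 20% mitochondrial UMIs.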

How the results depend on the processing

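Under no alternative was a gene of the 1413 called in the opposite direction. In calls (higher, lower), the counts were 859 with DESeq2 (385, 474), 934 with only the 2 classes fitted (359 higher), 435 with PLCG2-high cells inside the depth and mitochondrial limits of the comparison cells (183, 252), 842 with PLCG2 scaled to UMIs outside ribosomal protein and mitochondrial genes (389, 453), and 553 with cells thinned to 2000 UMIs (194, 359). Without a filter on low counts, 320 were higher and 1209 lower, so that 20.9% of calls were higher in place of 43.5%. Without a mitochondrial limit on comparison cells, 1204 were lower. Without the replicate block, 1656 genes were called, and the library had been kept as a block because both classes share it. With all other kept barcodes as the comparison, an alternative chosen after seeing the data, 1658 were called. Over all lists, 31 members rose and 109 fell; 17 rose without the filter, 11 rose and 54 fell with limits matched, and 17 rose after thinning.

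The class itself held 18 and 16 cells with limits matched and 162 and 98 with no filter on genes or mitochondrial share. The ribosomal protein share of summed UMIs was −5.88 percentage points against the comparison. It was −4.60 with a limit of 1000 CPM, −3.84 with limits matched, −8.69 without the mitochondrial limit, −4.59 with the other denominator and −5.29 after thinning. The difference in nuclear-retained noncoding RNA, 4.43 points, became 3.77, 4.70, 3.99 and 4.97 with a limit of 1000, without the mitochondrial limit, with the other denominator and after thinning. MALAT1 carried this difference. As means of 2 libraries, its share of summed UMIs was 5.67% against 1.25%, and that of the whole list 6.02% against 1.58%. The difference in mitochondrial RNA, 1.94 points, was 4.49 without the mitochondrial limit, 0.735 after thinning, 1.28 with a limit of 1000 and 1.32 with limits matched. By library alone the 3 differences were −5.51 to −6.26, 4.37 to 4.50 and 0.824 to 3.06 points. Fewer or shallower cells give lower counts to test. How far that lowered the number of calls, and what caused the other changes, was not tested.

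Of 92 called genes named in the report, 45 passed under every alternative that gave a value. DLG2 and SNHG1 failed under 8, and DGKZ and STMN2 under 6. The log2 fold change of UBE2C was 0.0474 with a limit of 1000 CPM, and that of CYP19A1 was 0.974 in library 1 alone and −4.33 in library 2 alone. The log2 fold change of NEAT1, which did not pass, was 0.0081 with only the 2 classes fitted, 0.14 without the mitochondrial limit and 0.82 against all other kept barcodes. With 2 libraries and 67 cells, a gene that missed the threshold was not shown to be alike in both classes.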

Other observations

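Kept barcodes with PLCG2 between 500 and 2000 CPM were 6 in library 1 and 24 in library 2. They were neither PLCG2-high nor comparison cells and formed part of the other kept barcodes. Their median MALAT1 share was 1.53% and 1.37%, and their median ribosomal protein share was 18.8% and 15.4%. Both pairs of medians lay nearer to those of all other kept barcodes, which include them (MALAT1 1.47% and 1.27%), than to the PLCG2-high cells (6.70% and 5.36%). TEX14, the intercellular bridge gene, stood at 81.4 and 39.3 CPM over these barcodes, between the 202 and 295 CPM of PLCG2-high cells and the 1.89 and 1.78 CPM of the other kept barcodes. With 6 cells in library 1, of which 1 held 50696 of their 85965 UMIs, these values are a description only.

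Counts by chromosome differed beyond chromosome 19. On chromosome 16, which carries PLCG2, 38 of 391 tested genes were higher (9.72%) and 25 lower, and on chromosome 17, which carries TEX14, 42 of 520 were higher (8.08%) and 48 lower. On the X chromosome 7 of 311 were higher (2.25%) and 27 lower. These shares stand beside 6.34% higher and 8.22% lower over all genes tested, and neighbouring genes are not independent.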
